A study of Mus musculus with 2 samples.

Results

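Hsd3b6 and Hsd11b2 are 2 of the 18323 genes counted in both deposited tables, which list 23075 genes between them. They were chosen by their measured levels in these wells, Hsd3b6 having stood out as higher at the later embryonic stage (E11.5), so the levels below are a description, with no test. The cells came from wildtype C57Bl/6 mouse embryos of the stages E11.5 and E9.5, from the aorta-gonad-mesonephros region (AGM), where blood stem cells arise, and the yolk sac, the site of the earliest blood. Live cells (7AAD negative) had been sorted by the endothelial surface protein VE-cadherin into positive cells and negative cells of the microenvironment, and dispensed as single cells into the nanowells of 2 ICELL8 chips, 1 per stage. Each of the 8 pools of stage, tissue and gate is 1 sample, so no p-value is given, and stage and chip cannot be told apart.

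Hsd3b6 is one of the mouse enzymes that turn pregnenolone into progesterone, the oxidation and isomerisation that every active steroid hormone passes through. In the mouse it is known from the giant cells of the trophoblast, Leydig cells and the outer adrenal cortex. Hsd11b2 inactivates corticosterone, the main glucocorticoid of rodents, and so keeps it from the mineralocorticoid receptor in kidney and from the fetus in the placenta. Erythroid cells of these stages carry haemoglobin RNA in great excess, and the embryo passes from embryonic towards adult globins in this period.

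Hsd3b6 (ENSMUSG00000027869.14) lies at chr3:98805504-98814443 on the minus strand of GRCm38 in the GENCODE vM21 annotation, with at most 4 exons per transcript. It sits in a cluster of near copies: 16.1% of the 50-base words of its 1802-base transcript also occur in transcripts of other genes, among them Hsd3b1, Hsd3b2 and Hsd3b3. Over the last 500 words, at the 3′ end, the share is 32.2%. Reads from such stretches could have been counted for either gene, and how the authors treated them is not given in the sources used here. Hsd11b2 (ENSMUSG00000031891.6) lies at chr8:105518755-105523988 on the plus strand and has 5 exons, and none of its 50-base words occurs in another gene. Its neighbour Atp6v0d1, a subunit of the vacuolar proton pump, ends 476 bases away on the opposite strand. Atp6v0d1 lay between 22.9 and 31.3 CPM (counts scaled to a total of 1000000 in every pool) in the E11.5 pools and between 13.5 and 26.8 CPM in the E9.5 pools, a far narrower range than that of Hsd11b2.

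The promoter of Hsd3b6 is shown because its transcript ran with erythroid RNA below. In RefSeq (GRCm38.p6) the window of 250 bases before to 50 bases after the gene start is chr3:98814394-98814693, minus strand, here 5′ to 3′. Capitals mark a match to the DNA motif bound by GATA-type erythroid factors, as searched below.
Hsd3b6 promoter: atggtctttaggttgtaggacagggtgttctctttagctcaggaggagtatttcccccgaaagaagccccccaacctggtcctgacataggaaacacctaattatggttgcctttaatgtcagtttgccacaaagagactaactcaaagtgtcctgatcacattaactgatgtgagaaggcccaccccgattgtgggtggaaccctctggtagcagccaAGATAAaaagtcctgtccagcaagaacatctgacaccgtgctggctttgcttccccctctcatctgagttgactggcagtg
The motif searched was AGATAA, on both strands and no other, and it was picked with the erythroid pattern in view. It occurred 1 time, 31 bases before the gene start, and 11.2% of the 32851 promoter windows of this length held it on either strand. The match is a description of these letters and shows no binding.

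Wells with counts for 500 genes or more were used. At E11.5 these were 287 positive and 338 negative wells of the AGM, and 357 positive and 379 negative wells of the yolk sac. At E9.5 the numbers were 299 and 354 in the AGM, and 325 and 305 in the yolk sac. Where 4 values of a stage stand without names, they keep this order. The median well held 2532 to 3842 counts at E11.5 and 3961 to 12452 counts at E9.5, so shares of wells with a count are given with thinned values. The chips shared 473 cell barcodes. The sort was seen in the markers: 12 endothelial genes summed to 1652 and 1224 CPM in the E11.5 positive pools, against 96.0 and 65.6 CPM in the negative ones. Haemoglobin RNA stood in every pool, and the negative control wells, which hold no cell, had an erythroid list level of 219500 CPM at E11.5 and 230320 CPM at E9.5. Intervals are exact 95% intervals and cover counting error only, since the counts may include copies of 1 molecule.

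Hsd3b6 was higher at E11.5 than at E9.5 in AGM positive cells and in both yolk sac gates. AGM negative cells had the same direction, but their E11.5 level is not told from the background of the chip, as given with the control wells. Its counts at E11.5 were 196 in AGM positive, 56 in AGM negative, 606 in yolk sac positive and 620 in yolk sac negative wells. At E9.5 the same pools held 46, 9, 18 and 118 counts. Scaled to the total of each pool these are 231, 51.2, 494 and 380.2 CPM at E11.5, against 24.2, 5.30, 13.02 and 30.5 CPM at E9.5. The lowest E11.5 pool, AGM negative, had more CPM than the highest E9.5 pool, yolk sac negative. Since the AGM negative level is not told from background and Hsd3b6 was chosen for this contrast, nothing is read from that order. Fewer cells with Hsd3b6 and less of its RNA per cell cannot be told apart in such sums. The yolk sac pools were the highest at E11.5, and their intervals, 455 to 535 CPM for positive and 351 to 411 CPM for negative wells, did not overlap.

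**Figure D1:**
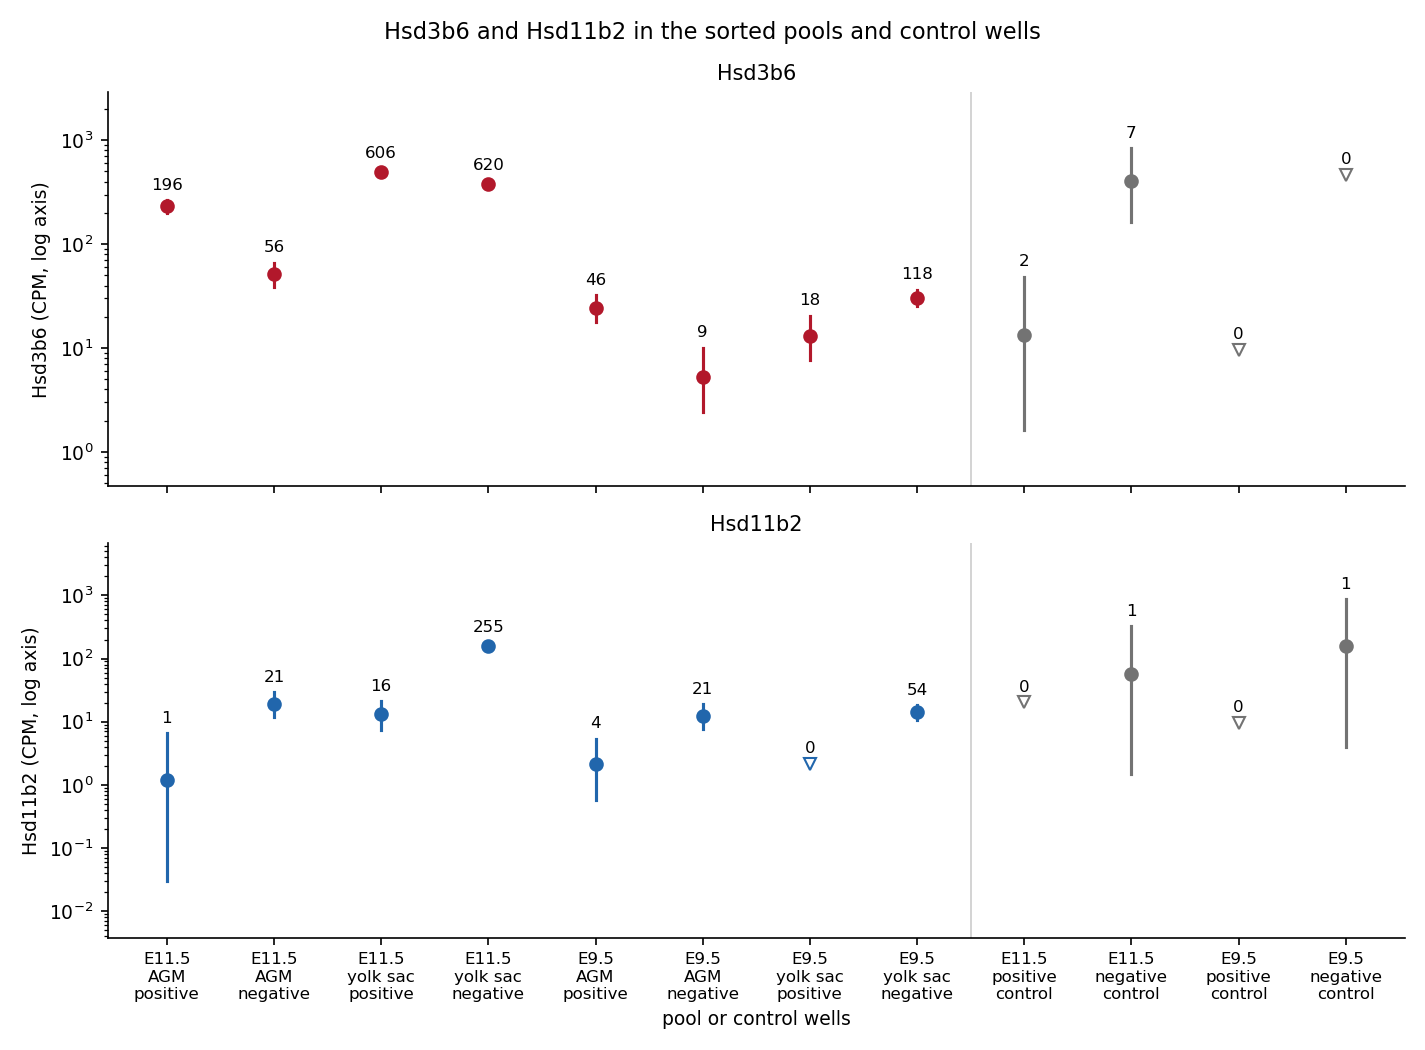
CPM of Hsd3b6 (top) and Hsd11b2 (bottom) on log axes in the 8 pools and, right of the grey line, the control wells of each chip; bars are exact 95% Poisson intervals, numbers are counts, and open triangles mark 0 counts at the level that 3 counts would give. Hsd3b6 lies between 51.2 and 494 CPM in the E11.5 pools and between 5.30 and 30.5 CPM in the E9.5 pools. The lowest of these E11.5 levels, in AGM negative wells, is not told from the background. Hsd11b2 stands out in E11.5 yolk sac negative wells at 156 CPM.

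The log2 ratio of E11.5 over E9.5 for Hsd3b6 was 3.25 (2.78 to 3.75) in AGM positive, 3.27 (2.25 to 4.48) in AGM negative, 5.25 (4.57 to 6.01) in yolk sac positive and 3.64 (3.35 to 3.93) in yolk sac negative wells. The median gene had a log2 ratio of -0.41, 0.04, -0.77 and 0.23 in these 4 pairs. Of the genes that reached 20 counts in the higher of the pools compared, 7.55%, 14.8%, 5.01% and 29.4% were at least 2-fold higher at E11.5, and 25.5%, 11.6%, 38.6% and 16.1% were at least 2-fold lower. Since Hsd3b6 was chosen for this contrast, nothing is read from those shares. With wells of 1000 genes or more and up to 10% mitochondrial counts the ratio was 4.06 in yolk sac positive and 2.77 in AGM positive wells.

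Many wells held Hsd3b6. At least 1 count was found in 40.4% of AGM positive, 13.3% of AGM negative, 65.8% of yolk sac positive and 64.1% of yolk sac negative wells at E11.5. At E9.5 the shares were 13.04%, 2.54%, 4.92% and 29.8%. After thinning every well to 1000 counts they were 20.6%, 4.805%, 34.5% and 28.0% at E11.5, against 2.68%, 0.282%, 1.85% and 2.95% at E9.5. The order of the stages was the same with and without thinning, while the high E9.5 yolk sac negative share went with that pool's depth. Single wells reached 20 counts in E11.5 yolk sac positive and 19 in E11.5 yolk sac negative cells, against 2 and 5 in the same pools at E9.5.

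The control wells set the background. On the E11.5 chip, 7 of 47 negative control wells (14.9%) held 1 Hsd3b6 count each, which is 0.149 counts per well, against 0.166 per well in AGM negative, 0.683 in AGM positive, 1.70 in yolk sac positive and 1.64 in yolk sac negative wells. Those control wells were shallow, with a median of 329 counts, and on the CPM scale they had 405 (163 to 834) CPM, an interval that covers the levels of the AGM positive and both yolk sac pools. By CPM alone these pools are therefore not told from the RNA in wells without a cell, and by counts per well they stand above it. The AGM negative share of 13.3% is below that of wells without a cell and is read as background. At E9.5 none of 48 negative control wells held Hsd3b6, which allows a share of up to 7.40%, above the shares of AGM negative and yolk sac positive wells. The E9.5 negative controls held 6452 counts in all, so this limit says little about those pools.

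Pools of a chip lay closer together when Hsd3b6 was counted against haemoglobin. Per 1000 haemoglobin counts, a denominator chosen after the data were seen, it had 0.905 counts in AGM positive, 1.47 in AGM negative, 1.39 in yolk sac positive and 1.16 in yolk sac negative wells at E11.5. At E9.5 it had 0.109, 0.123, 0.0734 and 0.0825. The E11.5 negative control wells, with 1.70 (0.685 to 3.51) counts per 1000, overlapped the 4 pools of their chip. The E11.5 positive control wells, which received RNA of mouse embryonic stem cells, had 0.562 on 2 counts. Within a chip the pools thus spanned a narrower range than in CPM.

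**Figure D2:**
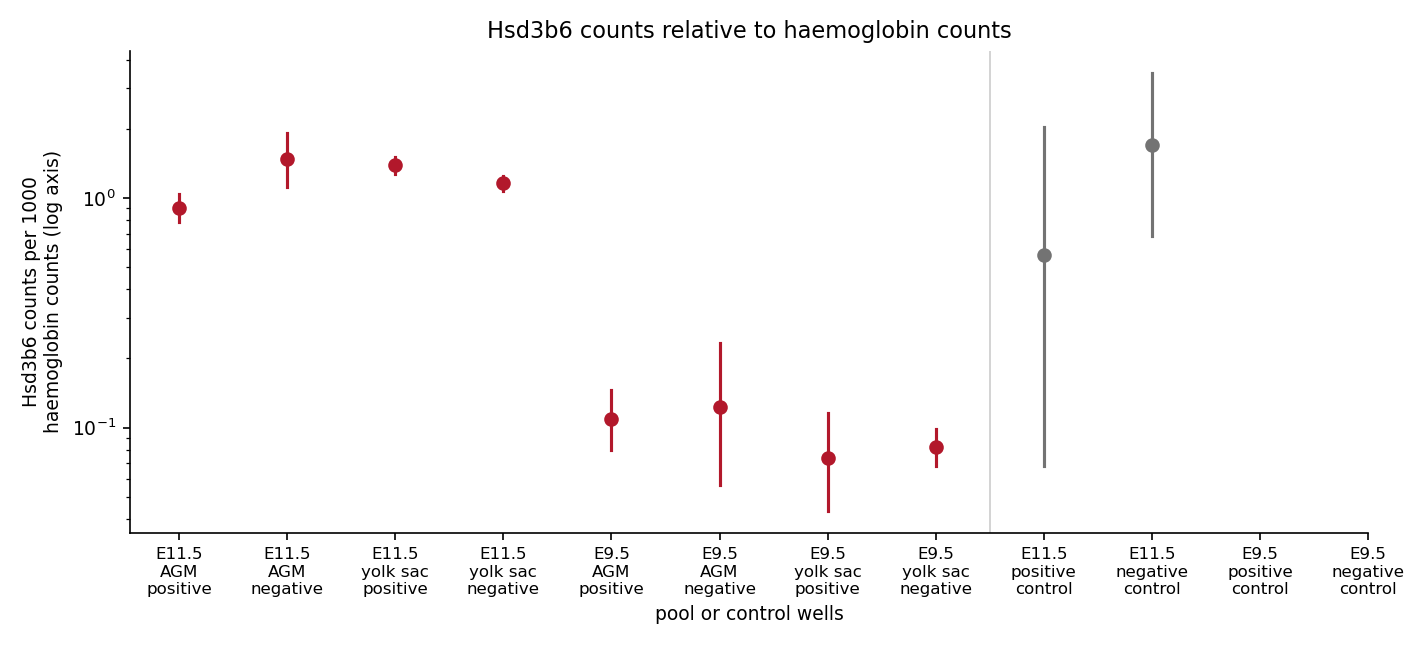
Hsd3b6 counts per 1000 haemoglobin counts (log axis) in the 8 pools and, right of the grey line, in the E11.5 control wells; bars are exact 95% Poisson intervals, and control groups with 0 Hsd3b6 counts are left blank. The E11.5 pools lie between 0.905 and 1.47 and the E9.5 pools between 0.0734 and 0.123.

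Per haemoglobin count the stage difference remained. Hsd3b6 was 8.30-fold higher at E11.5 in AGM positive, 11.99-fold in AGM negative, 18.9-fold in yolk sac positive and 14.0-fold in yolk sac negative wells. Other erythroid genes did not follow it on this scale. Alas2, which makes the first step of haem synthesis in red cells, stood at 0.911-, 0.816-, 0.792- and 0.767-fold in the same 4 pairs. Klf1, the erythroid transcription factor, stood at 0.0999- to 0.332-fold. Slc4a1, the red cell anion exchanger, stood at 0.880-, 0.498-, 0.866- and 0.696-fold, and Epor, the erythropoietin receptor, at 0.267- to 0.404-fold. The globins themselves differed between stages, with Hbb-bh1, an embryonic beta-type globin, at 5.52% to 6.95% of haemoglobin counts in E11.5 pools, against 22.2% to 23.9% in E9.5 pools. Whether a change in the haemoglobin RNA per cell has a part in the Hsd3b6 ratio was not tested.

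Between gates Hsd3b6 had no common direction. In the AGM it was higher in positive than in negative wells, with E11.5 at a log2 ratio of 2.17 (1.74 to 2.63) and E9.5 at 2.19 (1.14 to 3.41). In the yolk sac the ratio was 0.38 (0.21 to 0.54) at E11.5 and -1.23 (-2.03 to -0.51) at E9.5. Of all genes that reached 20 counts, 6.61% in E11.5 and 7.68% in E9.5 AGM were at least 2-fold higher in positive wells. In the yolk sac 9.26% at E11.5 and 38.9% at E9.5 were at least 2-fold higher, and 14.9% and 2.69% were at least 2-fold lower. Keeping only E11.5 yolk sac wells that reached 1000 genes and had no more than 10% mitochondrial counts turned the ratio to -0.60, on 79 counts in positive and 333 in negative wells. Per haemoglobin count the gate ratio was -0.70 (-1.14 to -0.25) in E11.5 AGM, so its direction turned, 0.26 (0.10 to 0.42) in E11.5 yolk sac and -0.17 in both E9.5 tissues.

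AGM wells held less Hsd3b6 than yolk sac wells in 3 of the 4 pairs. The log2 ratio of AGM over yolk sac was -1.10 (-1.34 to -0.86) in E11.5 positive, -2.89 (-3.31 to -2.50) in E11.5 negative and -2.53 (-3.69 to -1.55) in E9.5 negative wells, where 5.02%, 5.93% and 4.68% of all genes were at least 2-fold lower. There 10.0% of E11.5 positive, 45.3% of E11.5 negative and 54.7% of E9.5 negative genes were at least 2-fold higher. In E9.5 positive wells the ratio for Hsd3b6 was 0.89 (0.08 to 1.77), where 3.54% of genes were at least 2-fold higher and 8.62% at least 2-fold lower. Per haemoglobin count the same 4 ratios were -0.61, 0.35, 0.58 and 0.57, so the deficit of the negative AGM pools was not seen on that scale. In wells of 1000 genes or more and up to 10% mitochondrial counts the E11.5 positive ratio was -0.37. The negative AGM pools also had the least haemoglobin, and the part of haemoglobin-rich RNA in the CPM difference was not tested.

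Within both yolk sac pools at E11.5, Hsd3b6 was higher in wells with more haemoglobin. Wells of each E11.5 pool were put in 3 equal groups by their haemoglobin share, a step chosen after the data were seen, and Hsd3b6 was scaled to CPM of the counts other than haemoglobin. In yolk sac positive wells it was 310 in the lowest, 664 in the middle and 1912 in the highest group. In yolk sac negative wells it was 240.4, 583 and 1202. A gene at a fixed share of all counts would also rise on this scale, since the total without haemoglobin shrinks. The shares of wells with Hsd3b6 were 59.7%, 63.0% and 74.8% in yolk sac positive and 52.8%, 70.6% and 69.0% in yolk sac negative groups. AGM positive wells had 186, 191 and 766, level between the lowest and middle groups, and AGM negative wells 33.8, 44.2 and 116. Per 1000 haemoglobin counts the yolk sac groups stayed between 0.995 and 1.47. AGM positive wells did not keep 1 ratio, with 1.24 (0.95 to 1.59) in the lowest, 0.557 (0.38 to 0.79) in the middle and 0.934 in the highest group, and 41.7%, 26.0% and 53.7% of their wells held Hsd3b6. In AGM negative wells the share was 13.3%, 11.504% and 15.2%, on 18, 14 and 24 counts and a median depth of 3911, 2847 and 1895 counts. In E9.5 yolk sac negative wells, where the groups had median haemoglobin shares of only 33.9% to 40.8%, Hsd3b6 was 40.9, 50.8 and 56.3 CPM of the other counts, with overlapping intervals. In E9.5 yolk sac positive wells it was 5.92 (1.22 to 17.3), 11.9 and 37.5 (18.7 to 67.0), on 3, 4 and 11 counts.

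**Figure D3:**
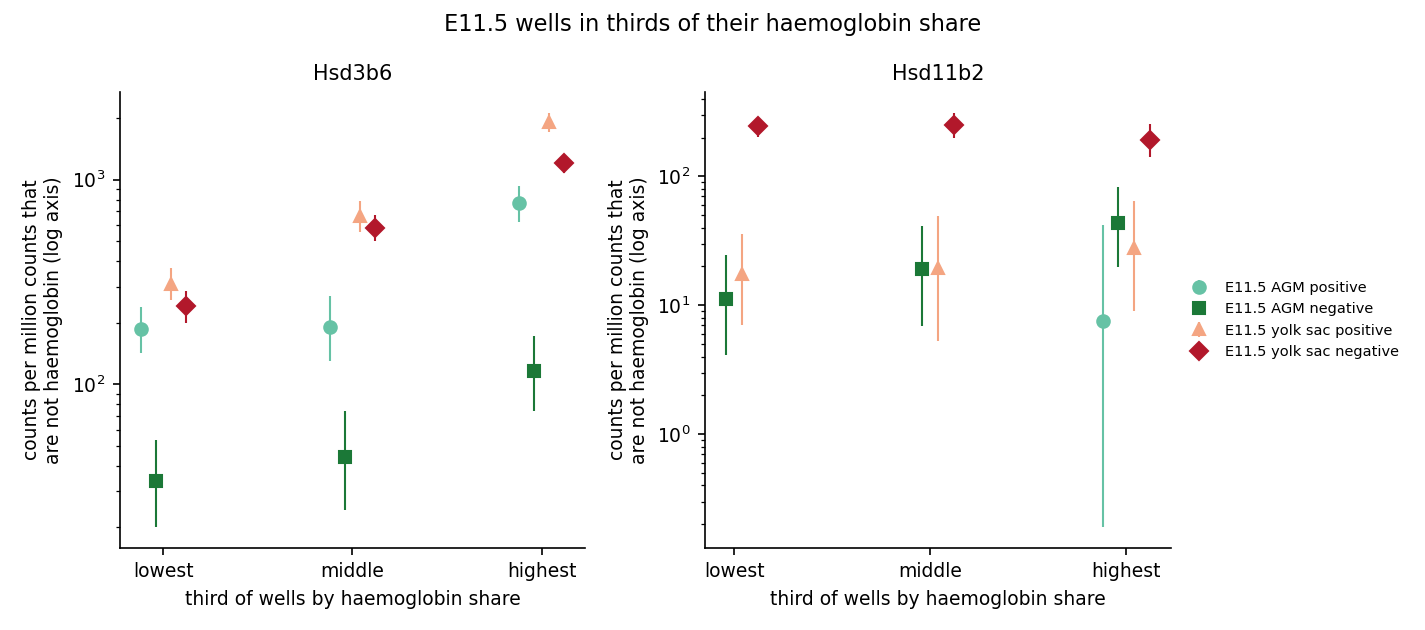
Hsd3b6 (left) and Hsd11b2 (right) in CPM of the counts other than haemoglobin (log axes) in E11.5 wells split in 3 equal groups by haemoglobin share, 1 symbol per pool, with exact 95% Poisson intervals; groups with 0 counts are left blank. Hsd3b6 reaches 1912 in the highest group of yolk sac positive wells, against 310 in the lowest, while Hsd11b2 in yolk sac negative wells stays between 191 and 249.

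Wells with Hsd3b6 held more erythroid genes than wells without it at E11.5. The list of 13 erythroid genes, mostly globins, had log2 ratios of 0.19 in AGM positive, 0.73 in AGM negative, 0.34 in yolk sac positive and 0.24 in yolk sac negative wells. At E9.5 the erythroid ratio had no common direction, with -0.04 (-0.050 to -0.025) in AGM positive and 0.06 (0.034 to 0.083) in yolk sac positive wells. In E9.5 yolk sac negative wells the ratio was -0.01, and it turned to 0.03 when only wells with 2 or more counts were taken as holding the gene. The endothelial list went the other way in E11.5 yolk sac positive wells, at 1054 CPM with Hsd3b6 and 1574 CPM without it, a log2 ratio of -0.58 (-0.73 to -0.43). In AGM positive wells at E11.5 the list of granulocyte and mast cell genes was higher in wells with Hsd3b6, at 5613 CPM against 2134 CPM, a log2 ratio of 1.40 (1.287 to 1.5045). Thinned to 1000 counts per well it was not, with 1797 CPM in wells with Hsd3b6 against 2018 CPM in wells without it, a ratio of -0.17 (-0.49 to 0.14), so no enrichment of these genes is read from this pool.

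The genes most enriched in E11.5 wells with Hsd3b6, averaged over the 4 pools, were Apom, Acp5, Reln, Slc25a21, Ncf4, Slc39a8, Creg1, Ank1, March3 and Pdzk1ip1, with mean log2 ratios of 0.86 down to 0.62. Ank1 encodes the ankyrin of the red cell skeleton, Slc39a8 a zinc and metal carrier and Apom an apolipoprotein. Of them, 8 were higher in wells with Hsd3b6 in all 4 pools, and Apom and Ncf4 in 3. Between pools Apom ran from -0.09 to 1.63 and Ncf4 from -0.27 to 2.29. Each pool had equal weight, though AGM negative had only 45 wells with Hsd3b6, a share read as background above. By this measure Alas2 had 0.57 and Hbb-y 0.37, while the endothelial genes Kdr and Cdh5 (the VE-cadherin gene) had -0.69 and -0.60. Besides Apom, genes of the visceral endoderm list lay on both sides of 0. Apoa1, Apoa2 and Rbp4 had 0.57, 0.54 and 0.38, Afp 0.05, and Ttr, Dab2 and Apob -0.33, -0.33 and -0.44. At E9.5, over 3 pools, the leading genes were Pus7, Lum, Dlat, Phf10, Ilkap, Rmdn3, Bad, Nt5c2, Fnbp4 and Atp5l, and Hbb-y stood at 0.03.

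Over the 8 pools, the genes whose log2(CPM + 10) was most alike to Hsd3b6 were Pkhd1l1, Slfn14, Tcp11l2, Hipk1, Bcl2l1, Afp, Fam46c, Fam174b, Slc20a1 and Slc7a8, out of 8132 ranked. Pearson's r was 0.977 for Pkhd1l1 and 0.924 for Slc7a8. Bcl2l1 encodes Bcl-xL, which keeps maturing red cells alive, and Afp the main plasma protein made by visceral endoderm. Pkhd1l1 had 94.1, 28.3, 107 and 84.6 CPM in the E11.5 pools, against 16.8, 4.12, 17.4 and 24.3 CPM in the E9.5 pools, in the order used above. These are correlations over 8 pools of 2 chips that share library and stage, and they carry no p.

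In clusters made without the 2 genes, Hsd3b6 at E11.5 was highest where haemoglobin was highest. Of 9 clusters, the highest, with 740 (672 to 813) CPM, was led by the red cell genes Kel, Ermap and Epb42 besides Ccdc92b and Slc22a4, and 181 of its 185 wells were yolk sac positive. Its best-matching marker list was visceral endoderm, with 9 genes detected, Afp, Ttr and Apoa1 among them. None of that list was among its leading genes, so the cluster was left unnamed. The next, with 540.2 CPM, was led by the Rh genes Rhag and Rhd together with the muscle genes Actg2 and Tnnt3, and 204 of its 209 wells were yolk sac negative. These clusters had 48.9% and 44.2% haemoglobin counts, the most of all 9. The lowest level, 53.5 CPM, was in the cluster of 340 mostly AGM negative wells with 3.76% haemoglobin. The macrophage-like cluster had 254 CPM, the granulocyte and mast cell-like cluster 283 CPM and the visceral endoderm-like cluster 230 CPM, with 18.4%, 32.1% and 23.1% haemoglobin. These names and levels depend on the resolution of the clustering. At resolution 2 the highest level, 782 (709 to 860) CPM, was in an unnamed cluster of 172 wells, 169 of them yolk sac positive. The best-matching list of that cluster was erythroid. At resolution 0.5 a cluster of 218 wells, 205 of them yolk sac positive, was visceral endoderm-like by its leading genes, had 43.7% haemoglobin and held the highest Hsd3b6 level of all, 631 (575 to 691) CPM.

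**Figure D4:**
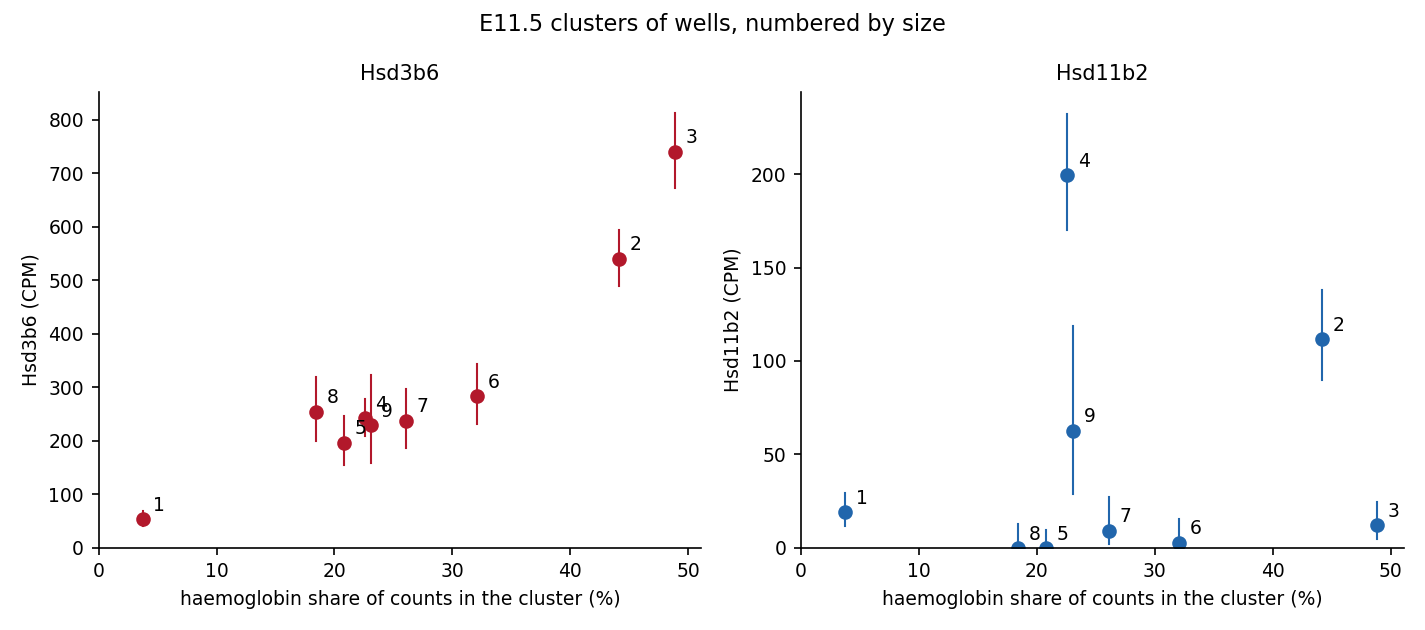
CPM of Hsd3b6 (left) and Hsd11b2 (right) against the haemoglobin share of counts in the 9 clusters of E11.5 wells, numbered by size, with exact 95% Poisson intervals. Hsd3b6 is highest in clusters 3 and 2, which have the most haemoglobin, and Hsd11b2 is highest in cluster 4, at 199 CPM and 22.6% haemoglobin.

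Per 1000 haemoglobin counts Hsd3b6 ran from 0.882 to 1.51 over the 9 clusters. The ends of that range were the granulocyte and mast cell-like cluster, at 0.882 (0.720 to 1.07), and the cluster led by Kel and Ermap, at 1.51 (1.38 to 1.66), whose intervals did not overlap. In most clusters nearly all wells came from 1 pool, so cluster and pool cannot be told apart. At E9.5 Hsd3b6 was highest at 30.5 CPM in the cluster that held all 305 yolk sac negative wells.

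Hsd11b2 lay mostly in VE-cadherin negative cells, above all in those of the E11.5 yolk sac. Its counts at E11.5 were 1 in AGM positive, 21 in AGM negative, 16 in yolk sac positive and 255 in yolk sac negative wells. At E9.5 they were 4, 21, 0 and 54. The levels were 1.18, 19.2, 13.04 and 156 CPM at E11.5, against 2.10, 12.4, 0 and 14.0 CPM at E9.5. The E11.5 yolk sac negative pool stood apart from the other 7, whose highest, E11.5 AGM negative, had an interval of 11.9 to 29.4 CPM. That pool and the E9.5 AGM negative and yolk sac negative pools had overlapping intervals.

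In E11.5 yolk sac negative cells 38.5% (33.6 to 43.6) of wells held Hsd11b2, against 13.8% at E9.5. After thinning to 1000 counts the shares were 10.6% (40 wells) at E11.5 and 0.656% (2 wells) at E9.5. The other E11.5 pools had 0.348% of AGM positive, 5.92% of AGM negative and 3.92% of yolk sac positive wells. At E9.5 the shares were 1.34%, 5.37% and, with 0 of 325 yolk sac positive wells, at most 1.13%. Each chip had 1 Hsd11b2 count in its negative control wells, in 2.13% (0.054 to 11.3) of wells at E11.5 and 2.08% (0.053 to 11.1) at E9.5. On these intervals the E11.5 yolk sac negative share, 38.5%, lies above the background of its chip. The E9.5 yolk sac negative share, 13.8% (10.1 to 18.2), overlaps that of its control wells. The shares of the other pools are not told from the background either. In CPM the shallow control wells had 57.8 (1.46 to 322) at E11.5 and 155 (3.92 to 864) at E9.5. These intervals cover the yolk sac negative levels of 156 and 14.0 CPM, so by CPM alone those pools are not told from it. The highest count in a well was 5, in E11.5 yolk sac negative cells.

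Between stages Hsd11b2 was higher at E11.5 in yolk sac negative wells. The log2 ratio of E11.5 over E9.5 was 3.48 (3.06 to 3.94) in yolk sac negative wells, an 11.2-fold difference. In yolk sac positive wells Hsd11b2 was at least 6.01-fold higher, taking 3 counts as the floor of the E9.5 pool. That bound rests on 16 counts in 14 wells, a share not told from the background. In AGM negative wells the log2 ratio was 0.64 (-0.31 to 1.58), which includes 0, and in AGM positive wells 1 count stood against 4.

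Against the mesenchymal genes of its pool, Hsd11b2 had no stage difference beyond counting error in the yolk sac negative wells. Per 1000 counts of the 10 mesenchymal genes, such as the collagens Col1a1 and Col3a1, it had 18.0 in E11.5 and 16.4 in E9.5 wells, a log2 ratio of 0.14 (-0.29 to 0.59). This denominator too was chosen after the data were seen. The mesenchymal list itself was at 8671 CPM in E11.5 and 851 CPM in E9.5 yolk sac negative wells. In AGM negative wells the same measure was 9.62 in E11.5 and 26.3 in E9.5 cells, and the log2 ratio was -1.45 (-2.40 to -0.51). More mesenchymal cells and more such RNA per cell cannot be told apart in pool sums.

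Hsd11b2 was lower in positive than in negative wells in each pair. The log2 ratio of positive over negative wells was -3.58 (-4.41 to -2.86) in E11.5 yolk sac and -2.55 (-4.56 to -0.99) in E9.5 AGM. In E11.5 AGM it was -4.03 (-9.40 to -1.39) on 1 count in positive wells. In E9.5 yolk sac, with 0 counts against 54, Hsd11b2 was at least 2.69 lower on the log2 scale in positive wells. Of all genes, 14.9%, 21.2%, 42.3% and 2.69% were at least 2-fold lower in these 4 pairs. AGM over yolk sac had a log2 ratio of -3.03 (-3.74 to -2.38) in E11.5 negative wells and -0.18 (-0.98 to 0.57) in E9.5 negative wells. The last was -1.31 with TMM scaling, which shifts every gene of a pair alike.

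Within E11.5 yolk sac negative wells, those with Hsd11b2 had more mesenchymal RNA, 9246 CPM over the list against 8199 CPM in wells without it, a log2 ratio of 0.17 (0.13 to 0.22). Smooth muscle genes had a ratio of 0.23 (0.11 to 0.35), and erythroid genes one of -0.25. Wells with Hsd11b2 were deeper, with a median of 4506 counts against 3453, and after thinning to 1000 counts the ratios were 0.33 (0.18 to 0.48) for mesenchymal and 0.51 (0.16 to 0.85) for smooth muscle genes. In E11.5 yolk sac positive wells the mesenchymal ratio was 1.21 (0.85 to 1.54) over 14 wells with Hsd11b2, and the endothelial ratio -0.40 (-0.88 to 0.04). The visceral endoderm list was higher in these 14 wells too, at 13105 CPM against 8720 CPM, a log2 ratio of 0.59 (0.47 to 0.71), and its part in the Hsd11b2 values of this pool was not tested. In E9.5 yolk sac negative wells the ratios were 0.26 (0.12 to 0.39) for mesenchymal and 0.62 (0.32 to 0.91) for smooth muscle genes.

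**Figure D5:**
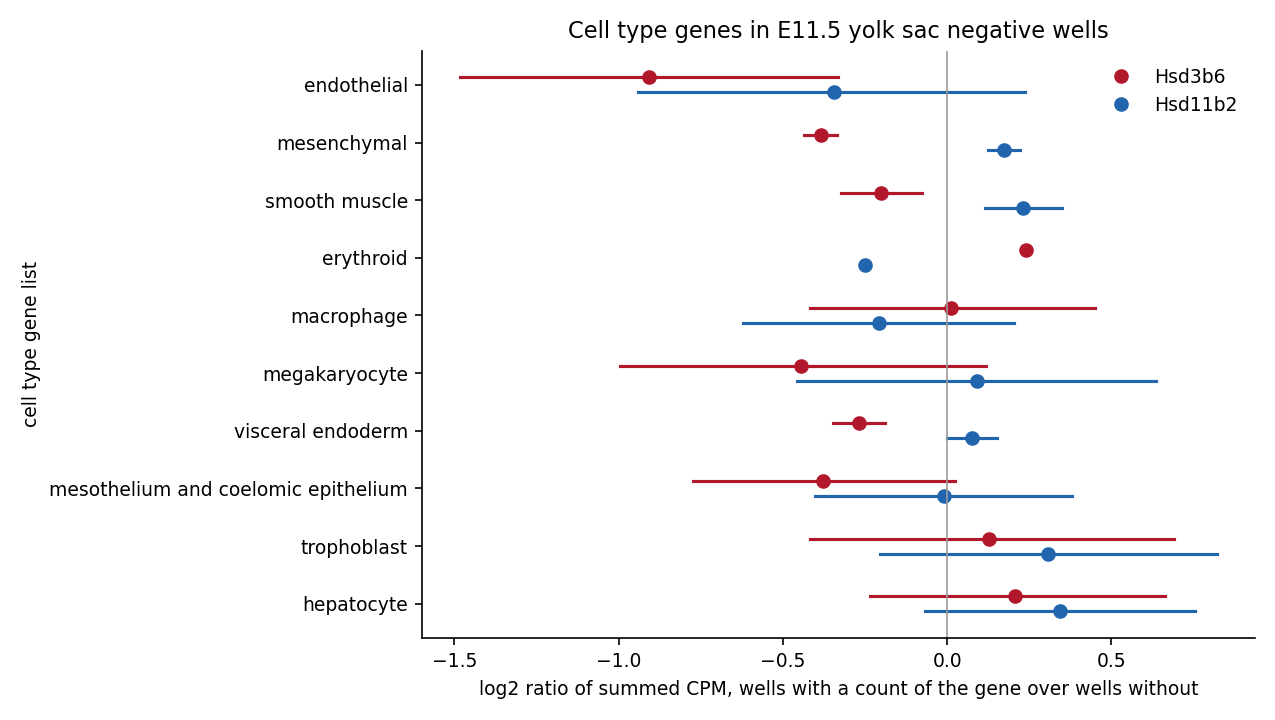
Log2 ratio of summed CPM of cell type gene lists in E11.5 yolk sac negative wells with a count of Hsd3b6 (red) or Hsd11b2 (blue) over wells without, with exact 95% conditional binomial intervals; lists with at least 100 counts are shown. The mesenchymal, smooth muscle and erythroid lists lie on opposite sides of 0 for the 2 genes, with erythroid at 0.24 for Hsd3b6 and -0.25 for Hsd11b2.

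Hsd11b2 did not follow haemoglobin in these wells. Over the 3 groups of rising haemoglobin share it had 244, 249 and 191 CPM of the other counts in E11.5 yolk sac negative wells. Per 1000 haemoglobin counts it had 1.01, 0.554 and 0.185, lowest in the wells with most haemoglobin. The 2 genes were in the same wells about as often as their shares alone would give: 95 of 146 wells with Hsd11b2 (65.1%, 56.7 to 72.8) also held Hsd3b6, against 63.5% of wells without Hsd11b2.

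The genes most enriched in E11.5 wells with Hsd11b2, over the 3 pools with at least 10 such wells, were Hand1, Nos1ap, Uph, Cdh11, Tinagl1, Spats2l, Dmd, Ccdc47 and Arhgap32. Hand1, a transcription factor of extra-embryonic mesoderm and heart, had a mean log2 ratio of 2.52, and the mesenchymal cadherin Cdh11 had 1.59. Between pools Hand1 ran from 0.33 to 4.09 and Cdh11 from 0.64 to 3.37. Each pool had equal weight, though AGM negative and yolk sac positive had only 20 and 14 wells with Hsd11b2. The collagen genes Col3a1, Col1a2 and Col1a1 had 0.69, 0.61 and 0.52, and the matrix proteoglycan Dcn 0.89. Of the other mesenchymal list genes ranked, Col5a1, Postn and Lum had 0.85, 0.77 and 0.62, while Pdgfra had -0.22. Of the smooth muscle list, Actg2 and Tagln had 0.50 and 0.49, while Acta2 had -0.24. At E9.5, over 2 pools, the leading genes were Ogdh, Slc25a21, Trak2, Cpeb4, Setd2, Ywhaq, Slc39a8, Reln, Eef1e1 and Atp8a1, with mean log2 ratios of 1.06 to 0.78.

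Over the 8 pools the genes most like Hsd11b2 were Cd248, Ak5, Tnnt3, Acta2, Wisp1, Hand2, Actg2, Smarca1, P4ha2 and Tbx20, with Pearson's r of 0.988 to 0.9505 and the same 8 pools of 2 chips behind every value. Cd248 marks stromal cells and pericytes, Acta2 and Actg2 are smooth muscle actins, and Hand2 and Tbx20 are transcription factors of mesoderm. Cd248 had 59.5 CPM in E11.5 yolk sac negative wells and at most 13.7 CPM in the other pools.

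By cluster, Hsd11b2 was highest at 199 (170.0 to 232) CPM in an E11.5 cluster of 172 wells led by Hand1, Lum, Wisp1 and Ak5, in which 47.7% of wells held it and 164 wells were yolk sac negative. The cluster led by Rhag and Actg2 had 112 CPM and the visceral endoderm-like cluster 62.6 CPM, the last on 9 counts. Hsd11b2 was at 0 in the 133 wells of the cluster led by the endothelial genes Emcn and Mmrn2, which allows up to 9.68 CPM. It was also at 0 in the 77 macrophage-like wells, which allows up to 12.7 CPM. The cluster led by the endothelial genes Stab2 and Gpr182 had 3 counts in 98 wells.

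Of the genes that make steroids from cholesterol, those found in many other tissues were counted in every pool, and those of the steroid-forming steps hardly at all. Por, which feeds electrons to P450 enzymes, had 30 to 71 counts in a pool, Tspo, a protein of the outer mitochondrial membrane, 17 to 99, and Stard3, a cholesterol-binding protein of late endosomes, 11 to 37. Tspo was at least 2-fold higher at E11.5 in AGM positive wells, by a log2 ratio of 1.62 (1.01 to 2.25), and Por in yolk sac negative wells, by 1.02 (0.27 to 1.77), while Stard3 was at least 2-fold lower in yolk sac positive wells, with -1.02 (-2.04 to -0.07). Among the 17-beta-hydroxysteroid dehydrogenases Hsd17b10 had 37 to 233 counts and Hsd17b12, which also acts in fatty acid elongation, 52 to 158. Among the near relatives of Hsd3b6, Hsd3b1 had at most 10 counts in a pool (E11.5 yolk sac negative) and Hsd3b2 at most 3. Star, which carries cholesterol into mitochondria, had at most 2 counts in a pool. Cyp11a1, which makes pregnenolone, had at most 2, and Cyp17a1, Cyp21a1 and Cyp19a1 at most 1, 2 and 1, all of these P450 genes in the E11.5 table. At such counts no comparison of pools was possible for these scarce genes, and 6 of the 12 genes of the cholesterol to steroid list were in both tables. The adrenogonadal primordium list, 7 genes with Nr5a1 and Star among them, summed to 5.52 to 22.9 CPM in the E11.5 pools.

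Genes that act with Hsd11b2 had few counts. Hsd11b1, which runs the reverse reaction and activates glucocorticoids, had 1, 0, 0 and 5 counts in the E11.5 pools, against 1, 14, 1 and 2 in the E9.5 pools. H6pd, which supplies Hsd11b1 with its cofactor, had 7.06, 6.40, 17.1 and 17.8 CPM at E11.5, against 1.58, 2.94, 2.89 and 3.37 CPM at E9.5, with log2 ratios of 2.56 (1.00 to 4.57) in yolk sac positive and 2.40 (1.41 to 3.47) in yolk sac negative wells. Hsd17b2, which inactivates oestradiol and testosterone, had 25 counts in E11.5 yolk sac positive wells against 0 at E9.5, at least 3.23 higher on the log2 scale.

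Of 8 steroid receptor genes, 7 were in both tables. Nr3c1, the glucocorticoid receptor, had 43.5, 42.1, 31.0 and 27.0 CPM in the E11.5 pools, against 6.83, 4.12, 15.2 and 5.18 CPM in the E9.5 pools. Of all genes measured, 7.55%, 14.8%, 5.01% and 29.4% were at least 2-fold higher at E11.5 in the same pairs, as Nr3c1 was. The log2 ratios of Nr3c1 were 2.67 (1.73 to 3.71) in AGM positive, 3.35 (2.20 to 4.74) in AGM negative, 1.03 (0.22 to 1.87) in yolk sac positive and 2.38 (1.59 to 3.22) in yolk sac negative wells. Nr3c2, the mineralocorticoid receptor, had at most 16 counts in a pool.

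The 12 genes of the glucocorticoid response list moved both ways between stages. In AGM positive wells 1 of 8 measured genes was at least 2-fold higher and 4 were lower, and in AGM negative wells 2 of 10 were higher and 3 lower, where 7.55% and 14.8% of all measured genes were higher and 25.5% and 11.6% lower. In yolk sac positive wells none of 7 was higher and 2 were lower, and in yolk sac negative wells 2 of 6 were higher and 2 lower, where 5.01% and 29.4% of all measured genes were higher and 38.6% and 16.1% lower. The median log2 ratios were -0.90, -0.60, -0.24 and -0.59, beside medians of -0.41, 0.04, -0.77 and 0.23 over all genes measured. Klf9, a transcription factor induced by glucocorticoids, had 1.18, 1.83, 6.52 and 4.29 CPM at E11.5, against 24.7, 95.9, 24.6 and 6.47 CPM at E9.5. Nfkbia, an inhibitor of NF-kappa-B, was at least 2-fold higher in all pairs but yolk sac positive wells, where its log2 ratio was 0.39 (-0.58 to 1.39).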

How the data were processed

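The authors deposited, for each chip, raw counts of every gene in each well. By the submitters' processing notes, FastQC, cutadapt and STAR with mm10 (GRCm38) were used; versions, the counting tool and molecular identifiers are not given in the sources used here. Wells with at least 500 genes were kept (850258 to 3862642 counts per pool) and doublets marked by Scrublet (9 at E11.5, 1 at E9.5, under the share at which the caller can be relied on) were kept. Counts were summed per pool and divided by the total. Ratios have exact conditional binomial 95% intervals, shares Clopper-Pearson ones, and 0 counts were set to 3 per pool. The ratio step was tested on simulated data. A gene was taken as measured where the higher pool of a pair held 20 counts or more; steroid genes below that are named only to show how few counts they had. Leiden clusters (2000 variable genes, 30 components, 15 neighbours, resolution 1) were named when at least 2 of 10 leading genes were markers of 1 type, outnumbering the rest, and 3 were detected. A looser naming rule was tried after these names were seen and dropped, since it gave a name against the leading genes. Genes alike by well are the 10 with the highest mean ratio (at least 50 counts, 20% of wells); alike by pool, the 10 highest correlations (at least 100 counts); mitochondrial, ribosomal and unnamed genes were left out, and some genes are not reported here. The 2 genes, lists and rules were chosen with earlier results of these data known. Alternatives were other well filters, weights, scalings, thinning and resolutions. Software was Python 3.11.15, scanpy 1.11.5, scipy 1.17.1, R 4.3.3 and edgeR 4.0.16 (TMM factors).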

Additional observations from a re-analysis of the deposited data

Results flagged for a closer look

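The gate ratio of Hsd3b6 lay on both sides of 0 between tissues and stages. Positive over negative wells gave log2 ratios of 2.17 in E11.5 AGM, 0.377 in E11.5 yolk sac, 2.19 in E9.5 AGM and -1.23 in E9.5 yolk sac. The tissue ratio did so as well, with AGM over yolk sac at -1.10 in E11.5 positive, -2.89 in E11.5 negative, 0.893 in E9.5 positive and -2.53 in E9.5 negative wells. These differences between pairs were not tested, since each pool is 1 sample. The negative control wells of the E11.5 chip, which hold no cell, had 7 Hsd3b6 counts.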

How the results depend on the processing

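Of the alternative log2 ratios between pools, 209 stayed inside the counting interval of the reported value (or within 1 of a reported bound), 14 moved outside it and 1 reversed; the causes were not tested. Of the other alternatives (levels, clusters, steroid list counts and the ratios of wells with a gene over wells without), 139 stayed, 62 moved and 1 reversed, and among them 11 ratios of wells moved, 1 reversed and none stayed inside its interval. The stricter filter (1000 genes or more, mitochondrial share up to 10%) turned the E11.5 yolk sac gate ratio of Hsd3b6 to -0.60 and moved its stage ratios to 2.77 in AGM positive and 4.06 in yolk sac positive wells, and its E11.5 positive tissue ratio to -0.37. Under it Hsd11b2 in E11.5 had 0 counts in AGM positive wells, so its gate ratio was at least 0.80 lower (-0.80) and its tissue ratio at least 0.32 lower (-0.32). TMM scaling moved Hsd3b6 to 3.26 (stage, yolk sac negative), -2.06 (gate, E9.5 yolk sac), 2.77 (gate, E11.5 AGM), -1.36 and -3.74 (tissue, E11.5 positive and negative), and Hsd11b2 to -1.31 and -3.87 (tissue, E9.5 and E11.5 negative). Equal weight per well gave -2.47 for Hsd3b6 in the E11.5 negative tissue pair, and totals without haemoglobin and mitochondrial genes -3.43. TMM shifted all log2 ratios of a pair by -1.13 to 0.60. The erythroid ratio of E9.5 yolk sac negative wells with 2 or more Hsd3b6 counts was 0.0316. The alternative chosen after seeing the data, without wells whose barcode is on both chips, kept each log2 ratio it could give inside the interval of the reported value, or within 1 of a reported bound; the stage ratios of Hsd3b6 were then 3.18, 3.67, 5.87 and 3.61. Per haemoglobin count they were 3.03 to 4.85 over the well filters, without doublets and without shared barcodes. A higher minimum of 100 counts changed 20 of 24 counts of steroid genes 2-fold apart. No paired analysis was possible because each group is 1 sample, and leaving out a replicate was not possible either.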
